A study of Mus musculus with 4 samples.

Results

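The S100, galectin and vimentin genes described here are 10 genes chosen by name: the calcium-binding S100 genes S100a4, S100a6, S100a10 and S100a11, the intermediate filament gene Vim, the galectin genes Lgals1 and Lgals3, and Crip1, Emp3 and Ahnak. All 10 were found among the 11352 gene rows of the count table. They were measured in photoconverted (KIKR-Red) and non-photoconverted (KIKR-Green) group 2 innate lymphoid cells (ILC2) sorted as single cells from the pancreas of C57BL6J mice. ILC2 are tissue lymphocytes known for making type 2 cytokines, and KIKR is a photoconvertible reporter whose green fluorescence becomes red after violet light, so that a red cell bears a mark of earlier exposure. Both colours are thus states of KIKR; the promoter that drives it, the feeding state, the age and the number of animals are not given in the labels, and whether cells came from pooled animals is not stated. Libraries were made by SORT-seq, which reads the 3' ends of polyadenylated RNA.

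Row names were usable for plate 1 alone, so every value below is one of a single library plate with no replicate, and no p-value was computed. Rows named as mitochondrial held 5.63% of the reads of plate 1 and between 0.0110% and 0.0531% on the other 3 plates, where the names do not match the values. Plate 1 had 52614294 reads in 12 photoconverted wells, 151 non-photoconverted wells and 221 wells left empty. A cell was kept with at least 500 genes and under 25% mitochondrial reads, which left 8 photoconverted and 98 non-photoconverted cells. At least 3 of 12 ILC2 markers were detected in 8 of 8 photoconverted and 88 of 98 non-photoconverted cells. Since Vim, Lgals1 and several S100 genes are also typical of stromal and myeloid cells, their markers were looked for: 0 of 8 stromal markers matched a row used here, and of 10 myeloid markers 3 did, with Cst3 in 6 of 8 photoconverted cells and 29 of 98 non-photoconverted cells, H2-Aa in 0 and 4, and Cd68 in 1 and 0. Their summed level ran from 0 to 937 reads per 1000000 gene reads (median 96.9) in photoconverted and from 0 to 6953 (median 16.7) in non-photoconverted cells, 0 cells held all 3, and their part in the results was not tested.

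S100 proteins are small calcium sensors that work by binding partner proteins. S100a10 pairs with annexin A2 and with the giant scaffold protein Ahnak at the inner face of the plasma membrane, and S100a11 binds annexin A1. Galectins bind beta-galactosides on glycoproteins, vimentin forms the intermediate filaments of lymphocytes and mesenchymal cells, Crip1 is a small LIM domain protein, and Emp3 is a membrane protein of the PMP22 family. In T cells many of these transcripts are known to be more abundant in effector and memory cells than in naive cells.

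The 4 S100 members lie on mouse chromosome 3 in 2 neighbouring pairs (GENCODE M21, mm10). S100a4 (90603771 to 90606045) and S100a6 (90612882 to 90624181) are 6836 bases apart. S100a11 (93520488 to 93526287) and S100a10 (93555080 to 93564643) are 28792 bases apart, and all 4 are on the plus strand. Vim lies on chromosome 2 (13573927 to 13582826), Lgals1 on 15 (78926725 to 78930465), Lgals3 on 14 (47367751 to 47386160), Crip1 on 12 (113146316 to 113153879) and Ahnak on 19 (8989284 to 9076914), all on the plus strand, and Emp3 on the minus strand of 7 (45918023 to 45921404). Promoter windows from 250 bases before to 50 bases after the start site (RefSeq, GRCm38.p6) were found for 8 of the 10 members, all but S100a10 and Lgals1. The windows of S100a4, S100a6 and Vim are shown because their levels went together across cells, and that of S100a11 as an S100 member that went less with them. Capitals mark matches on either strand to TATAAA, to the AP-1 type motif TGANTCA, to the GC box GGGCGG, to the CArG box of serum response factor or to the NF-kB consensus.
S100a4, chr3:90603520-90603819, plus strand: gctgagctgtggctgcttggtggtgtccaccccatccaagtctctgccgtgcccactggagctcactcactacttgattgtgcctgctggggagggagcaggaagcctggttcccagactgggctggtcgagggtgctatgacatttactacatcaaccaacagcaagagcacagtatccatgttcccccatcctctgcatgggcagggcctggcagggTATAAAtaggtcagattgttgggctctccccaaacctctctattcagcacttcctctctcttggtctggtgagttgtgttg
S100a6, chr3:90612644-90612943, plus strand: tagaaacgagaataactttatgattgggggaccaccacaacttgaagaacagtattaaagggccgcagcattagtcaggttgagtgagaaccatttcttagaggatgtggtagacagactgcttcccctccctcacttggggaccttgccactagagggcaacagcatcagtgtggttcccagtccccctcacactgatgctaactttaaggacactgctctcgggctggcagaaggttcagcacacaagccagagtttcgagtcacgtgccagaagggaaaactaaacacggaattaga
Vim, chr2:13574061-13574360, plus strand: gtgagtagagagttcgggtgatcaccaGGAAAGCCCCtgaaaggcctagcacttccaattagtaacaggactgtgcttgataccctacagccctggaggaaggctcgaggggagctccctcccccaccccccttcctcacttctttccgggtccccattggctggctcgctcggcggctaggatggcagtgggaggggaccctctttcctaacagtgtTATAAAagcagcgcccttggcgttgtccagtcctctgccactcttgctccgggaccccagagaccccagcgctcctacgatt
S100a11, chr3:93520246-93520545, plus strand: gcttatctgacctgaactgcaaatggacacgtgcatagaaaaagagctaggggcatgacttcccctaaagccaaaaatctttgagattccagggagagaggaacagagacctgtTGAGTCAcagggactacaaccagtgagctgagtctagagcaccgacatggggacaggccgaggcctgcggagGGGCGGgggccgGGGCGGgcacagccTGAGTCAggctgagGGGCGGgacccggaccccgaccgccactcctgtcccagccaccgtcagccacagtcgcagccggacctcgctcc
S100a4 and Vim held TATAAA at -31 and -32 from the start site, and 1 of 2 Emp3 windows at -40. S100a11 held TGANTCA at -136 and -38 and GGGCGG at 3 places, while the S100a6 window held none of the 5 motifs. Of all 32851 promoter windows of this length, 13.6% held TATAAA, 7.81% TGANTCA, 35.7% GGGCGG, 1.63% a CArG box and 4.51% the NF-kB consensus. Among the 8 members with a window, 3 held TATAAA, 1 TGANTCA, 4 GGGCGG, 0 a CArG box and 1 (Vim) the NF-kB consensus. These are matches of letters, and no binding was measured.

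All 10 genes were seen in a larger share of photoconverted than of all non-photoconverted cells, but so were 86.4% of the 3188 genes that passed a filter on low values, and photoconverted cells also gave more genes per cell. Their median was 2748.5 genes with at least 1 read, against 1637 in non-photoconverted cells, with median spike-in reads of 59283.5 and 67405. Detection of a gene meant 16 or more reads in the cell. To allow for depth, each photoconverted cell was compared with its 5 closest non-photoconverted cells in number of genes. These depth-matched cells were 29 distinct cells with a median of 2513 genes, and their shares and mean levels are weighted by how often each was matched. The match is incomplete. Photoconverted cells had a median of 540662 gene reads, against 365563 in the 29 depth-matched cells, and a mean of 2887 genes, against 2679 by weight. The deepest photoconverted cell had 5129 genes and the deepest non-photoconverted cell 4480. Shares at a fixed limit of 16 reads are thus not fully freed of depth. In the empty wells the background was low: S100a10 reached 16 reads in 1 of 221 and the other 9 genes in 0 of 221. Taken as 3 counts, the limit that a count of 0 allows is 1.36%, and the exact 95% interval reaches 1.66%.

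**Figure D1:**
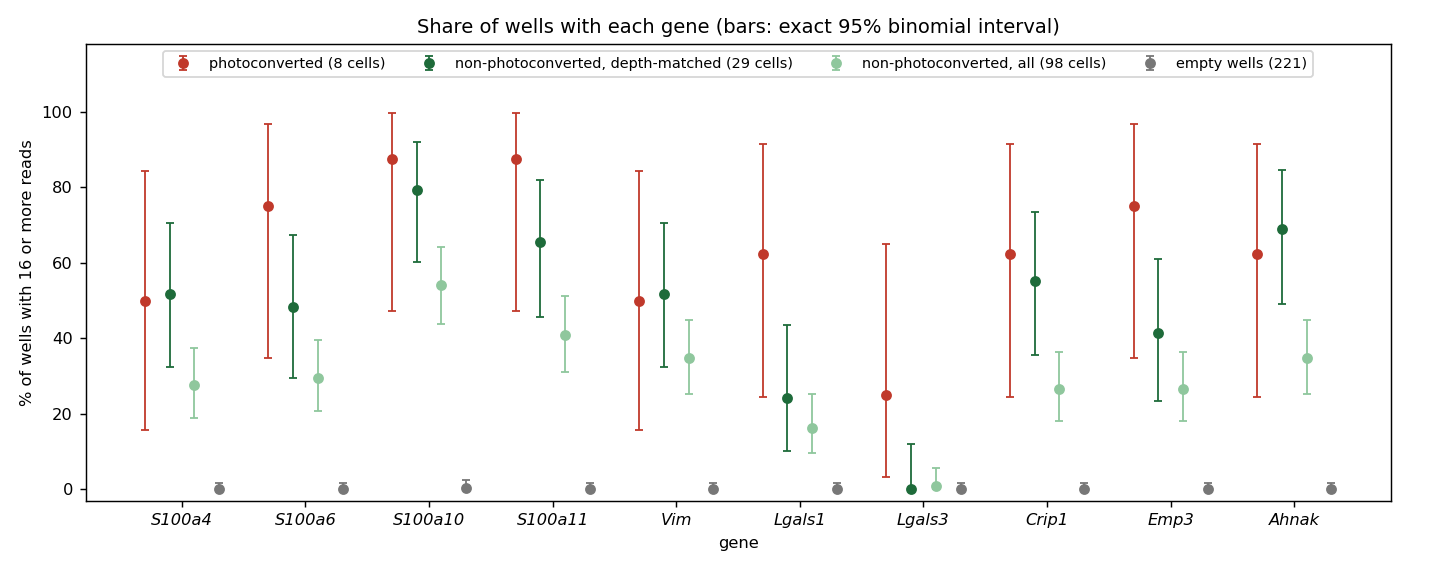
Percentage of wells with 16 or more reads of each gene (y axis) for photoconverted cells, the 29 distinct depth-matched non-photoconverted cells (each counted once), all 98 non-photoconverted cells and the 221 empty wells; bars are exact 95% binomial intervals. The intervals of the 8 photoconverted cells overlap those of the depth-matched cells for every gene, and empty wells lie at or near 0.

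After matching, 6 of the 9 genes that passed the filter on low values reached detection in a larger share of the photoconverted cells, namely S100a6, S100a10, S100a11, Lgals1, Crip1 and Emp3, and 3 in a smaller share, namely S100a4, Vim and Ahnak. The filter asked for detection in at least 10% of all 106 cells and left out Lgals3 alone. Over all 3188 genes that passed it, 54.4% were higher by share and 38.6% lower, so the count of 6 of 9 is near the background. With each cell drawn down to 1000 reads, the count was 5 of 9, beside 44.6% of all genes. Of the 9 genes, Lgals1 alone kept the direction of its share difference in all 18 alternatives that could move it. The direction turned in 4 for Ahnak and for S100a10, in 3 for Crip1 and in 2 for S100a4 and for Emp3. It turned in 1 for S100a11 and for Vim, while S100a6 stood at 0 in 1. The alternatives share most of their photoconverted cells, and asking for at least 1000 genes is the same as leaving out cell 8. No such count was made over all genes. The median difference of the 9 genes was 7.5 percentage points, against 2.5 over all genes. By mean level, the 9 genes had a median log2 ratio of 0.72 (photoconverted over depth-matched, 10 CPM added), against -0.27 over all genes. Scaled to spike-in reads in place of gene reads, these medians were 0.027 over the 9 genes and 0.10 over all genes. Both 0.72 and 0.027 are the value of Crip1, the middle gene of the 9. Per spike-in read S100a6, S100a10, S100a11 and Lgals1 stood at 1.20, 1.07, 1.07 and 1.66. S100a4, Vim, Emp3 and Ahnak stood at -2.05, -0.41, -0.90 and -0.096. S100a6, S100a10 and Lgals1 had a mean level at least 2-fold higher, beside 11.4% of all genes, and S100a4 and Emp3 one at least 2-fold lower, beside 26.5%. The log2 ratio of Emp3 was above -1, among others, without cell 1 (-0.85), without cell 7 (-0.83), without 2 non-photoconverted cells with markers of dividing cells (-0.88), with the 10 nearest cells (-0.87) and per spike-in read (-0.90). Without photoconverted cell 8, the shallowest with 938 genes, the count became 4 of 9, the median difference -2.86 points and the median log2 ratio 0.13, and S100a10 (0.63) was no longer 2-fold higher. Without cell 4, the deepest and the single cell with the macrophage gene Cd68, the count was 5 of 9, the median difference 2.86 points and the median log2 ratio 0.63.

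S100a4, which binds myosin and is known for its part in cell movement, had the lowest ratio of levels of the 10 genes. Detection was in 4 of 8 photoconverted cells (exact 95% binomial interval 15.7 to 84.3%), in 60% of the depth-matched cells by weight and in 27.6% of all non-photoconverted cells (19.0 to 37.5%). In photoconverted cells 1 to 8, numbered in well order, it had 0, 0, 193, 28.0, 93.3, 5.87, 221 and 0 reads per 1000000 gene reads of the cell (CPM). Among the 29 depth-matched cells it had 0 CPM at the lowest, 96.2 at the median and 1625 at the highest. No photoconverted cell came above 221 CPM, and the groups overlapped throughout that range. The mean was 67.6 CPM in photoconverted and 283 CPM in depth-matched cells, a log2 ratio of -1.92. Pooled over cells, S100a4 gave 81.0 CPM in photoconverted cells (exact 95% Poisson interval 73.4 to 89.2) and 292 in the 29 depth-matched cells (283 to 302). A single cell held 31.0% of the S100a4 reads of the depth-matched cells. Without the 2 non-photoconverted cells that held at least 3 of 6 markers of dividing cells, the log2 ratio of S100a4 was -1.13, and by share S100a4 stood 2.86 points higher in photoconverted cells when cell 1 was left out. Intervals here cover counting error only, and reads copied by PCR are not independent molecules. GENCODE places a further gene, Gm42674, over S100a4 on the same strand with shared exon bases, so reads there may be from either.

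S100a6, the neighbour of S100a4 on chromosome 3 and a calcium sensor often linked to cell growth, stood on the other side. It reached 16 reads in 6 of 8 photoconverted cells (34.9 to 96.8%), in 60% of depth-matched cells and in 29.6% of all non-photoconverted cells (20.8 to 39.7%). Photoconverted cells 1 to 8 had 304, 783, 1044, 965, 220, 415, 5.72 and 0 CPM. The depth-matched cells had 0 CPM at the lowest, 25.2 at the median and 692 at the highest. Cells 2, 3 and 4 lay above every depth-matched cell, whereas cells 7 and 8 lay below their median. The mean was 467 CPM in photoconverted and 225 CPM in depth-matched cells (log2 ratio 1.02), and the pooled level 583 (562 to 604) and 223 (215 to 232) CPM. Among all 98 non-photoconverted cells the highest value was 4844 CPM, so high S100a6 was not restricted to photoconverted cells. Leaving out cell 3, cell 4 or cell 6 brought the log2 ratio to 0.76, 0.87 and 0.88.

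S100a10, the partner of annexin A2, had the highest share at 16 reads in non-photoconverted cells and, with S100a11, in photoconverted cells. It stood at 7 of 8 photoconverted cells (47.3 to 99.7%), in 85% of depth-matched and in 54.1% of all non-photoconverted cells (43.7 to 64.2%). Its level in photoconverted cells 1 to 8 was 479, 15.4, 258, 574, 543, 383, 524 and 2193 CPM, and the depth-matched cells had 0, 203 and 1530 CPM at the lowest, median and highest. It lay above the depth-matched median in 7 of 8 photoconverted cells. The mean of 621 CPM in photoconverted against 292 CPM in depth-matched cells (log2 ratio 1.06) leaned on cell 8, as given above. S100a11, which binds annexin A1, reached 16 reads in 7 of 8 photoconverted cells, in 70% of depth-matched and in 40.8% of all non-photoconverted cells. It had 1895, 514, 535, 1679, 276, 872, 963 and 0 CPM in photoconverted cells 1 to 8, against a lowest of 0, a median of 232 and a highest of 3023 CPM in depth-matched cells. Again 7 of 8 photoconverted cells lay above the depth-matched median, with means of 842 and 494 CPM (log2 ratio 0.76). S100a11 has an annotated pseudogene, S100a11-ps, and reads of near-identical copies could be split between them. With detection at 1 read, the S100a11 share stood 7.5 points lower in photoconverted cells, and 60 of 221 empty wells also had at least 1 read of it.

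**Figure D2:**
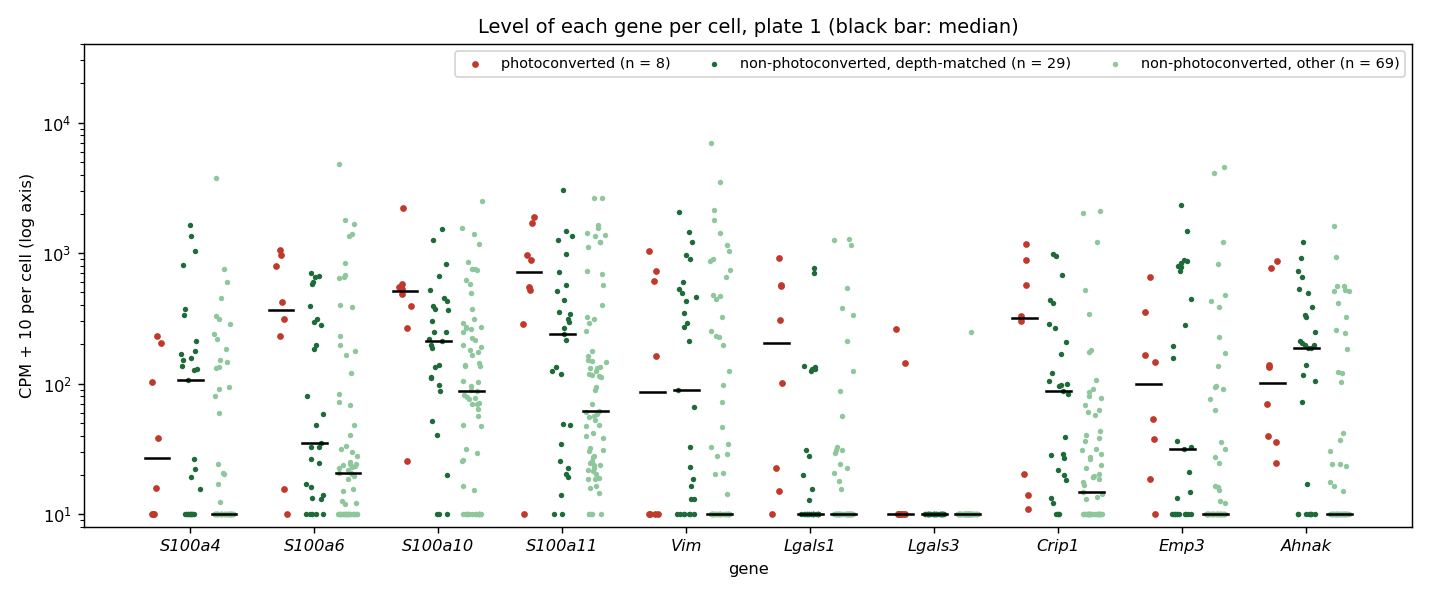
Level of each gene in each cell as CPM + 10 (log axis), for photoconverted cells, depth-matched non-photoconverted cells and the other non-photoconverted cells of plate 1; black bars are unweighted medians. Points at 10 are cells with no reads; the median of S100a6, S100a10, S100a11, Lgals1, Crip1 and Emp3 is higher in photoconverted than in depth-matched cells, and that of S100a4 and Ahnak lower, while points of the groups overlap.

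Vim reached 16 reads in 4 of 8 photoconverted cells (15.7 to 84.3%), in 62.5% of depth-matched and in 34.7% of all non-photoconverted cells (25.4 to 45.0%). Photoconverted cells fell into those with and those without it: cells 3, 4, 6 and 7 had 1023, 603, 153 and 721 CPM, and cells 1, 2, 5 and 8 had 0 reads. Cells without any Vim read were not confined to photoconverted cells, since 7 of 29 depth-matched and 46 of 98 non-photoconverted cells had none either. The depth-matched median was 79.9 CPM and the highest value 2053 CPM. The mean was 312 CPM in photoconverted and 480 CPM in depth-matched cells (log2 ratio -0.60). Leaving out a photoconverted cell gave between -1.18 (cell 3) and -0.19 (cell 1), and leaving out the dividing cells -0.14. Without cell 1 the shares were equal.

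Lgals1, the gene of galectin-1, had a share 30 points higher in photoconverted than in depth-matched cells, and between 14.8 and 46.2 points higher under the alternatives. Its detection was in 5 of 8 photoconverted cells (24.5 to 91.5%), in 32.5% of depth-matched cells by weight (7 of the 29 cells) and in 16.3% of all non-photoconverted cells (9.63 to 25.2%). Photoconverted cells 1 to 8 had 560, 5.12, 903, 549, 12.7, 299, 91.5 and 0 CPM. Depth-matched cells had 0 CPM at the lowest and at the median, since 17 of 29 had no read, and 764 CPM at the highest. The photoconverted cells with Lgals1 thus lay within the range of depth-matched cells, except for cell 3. The mean was 303 CPM in photoconverted and 100 CPM in depth-matched cells (log2 ratio 1.50), and leaving out any single photoconverted cell kept the ratio between 1.20 and 1.81. Pooled, Lgals1 gave 398 (381 to 416) and 108 (102 to 114) CPM. Lgals1 and Emp3 were the 2 of these 9 genes with a share at least 25 points higher, as were 12.5% of all genes tested. Pseudogenes Lgals1-ps1 and Lgals1-ps2 are annotated, and reads of near-identical copies could be split.

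Lgals3, galectin-3, a gene best known from macrophages, was all but missing from non-photoconverted cells. Reads reached 16 in 2 of 8 photoconverted cells (3.19 to 65.1%), with 83 reads (134 CPM) in cell 1 and 421 reads (251 CPM) in cell 4, and 0 reads in the other 6. Among non-photoconverted cells 1 of 98 had it (0.0258 to 5.55%), at 114 reads, and the other 97 had 0 reads. Of the 29 depth-matched cells 0 had it, for which the limit of 3 counts is 10.3% and the exact 95% interval reaches 11.9%, and no read of it fell in an empty well. Cells 1 and 4 are among the deepest photoconverted cells, with 3425 and 5129 genes, and no non-photoconverted cell was as deep as cell 4. Cell 4, with 83.5% of the Lgals3 reads of photoconverted cells, was also the single cell with the macrophage gene Cd68, at 55 reads, and it had 163 reads of Cst3, whereas cell 1 had 0 and 25. Whether cell 4 held RNA of more than 1 cell was not tested, nor was the part of these genes in the Lgals3 reads.

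Crip1 reached 16 reads in 5 of 8 photoconverted cells, in 55% of depth-matched and in 26.5% of all non-photoconverted cells. Its levels in photoconverted cells were of 2 kinds: cells 1, 3, 4, 5 and 8 had between 293 and 1167 CPM, and cells 2, 6 and 7 had at most 10.2 CPM. The mean was 404 CPM in photoconverted and 242 CPM in depth-matched cells (log2 ratio 0.72, and 0.13 without cell 8). Emp3 went 2 ways depending on the measure. Detection was in 6 of 8 photoconverted cells (34.9 to 96.8%), in 47.5% of depth-matched and in 26.5% of all non-photoconverted cells, but at low levels in most. The photoconverted cells that had it had a median of 146 CPM, and the 12 depth-matched cells that had it 783 CPM. Its mean was 169 CPM in photoconverted and 385 CPM in depth-matched cells (log2 ratio -1.14), whereas the ratio of median levels was 1.60 on the log2 scale. With detection at 64 reads its share stood 7.5 points lower in photoconverted cells.

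Ahnak, the scaffold that binds S100a10, reached 16 reads in 5 of 8 photoconverted cells (24.5 to 91.5%), in 72.5% of depth-matched and in 34.7% of all non-photoconverted cells. It had 765 and 867 CPM in photoconverted cells 4 and 8 and between 14.6 and 130 CPM in the other 6. Cell 4 alone held 80.6% of the Ahnak reads of photoconverted cells. The direction of the share turned with the detection limit: photoconverted cells stood 10 points lower at 16 reads and 35 points lower at 64 reads, but 20 points higher at 1 read and at 4 reads, and 2.86 points higher without cell 2. The depth-matched median was 178 CPM, above 6 of 8 photoconverted cells, while the means were close at 252 CPM in photoconverted and 282 CPM in depth-matched cells (log2 ratio -0.16, and -0.58 without cell 4).

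The number of the 10 genes detected per cell followed depth. Photoconverted cells 1 to 8 held 7, 3, 9, 10, 6, 7, 6 and 3 of them, a median of 6.5. The depth-matched cells held between 0 and 9, with a median of 6, and all non-photoconverted cells between 0 and 9, with a median of 2.5. Taken by weight, the depth-matched mean was 5.45 and the photoconverted mean 6.38 genes. Among the 33 non-photoconverted cells with fewest genes (502 to 1194), the median was 1, in the middle (1220 to 2011) 3, and in the deepest (2026 to 4480) 6. From shallow to deep, S100a4 was detected in 3.03%, 25% and 54.5% of these cells, and S100a10 in 12.1%, 59.4% and 90.9%. Within single matched sets, photoconverted cells 3, 4, 5, 6 and 8 held more members than the median of their 5 matched cells, and cells 1, 2 and 7 fewer.

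**Figure D3:**
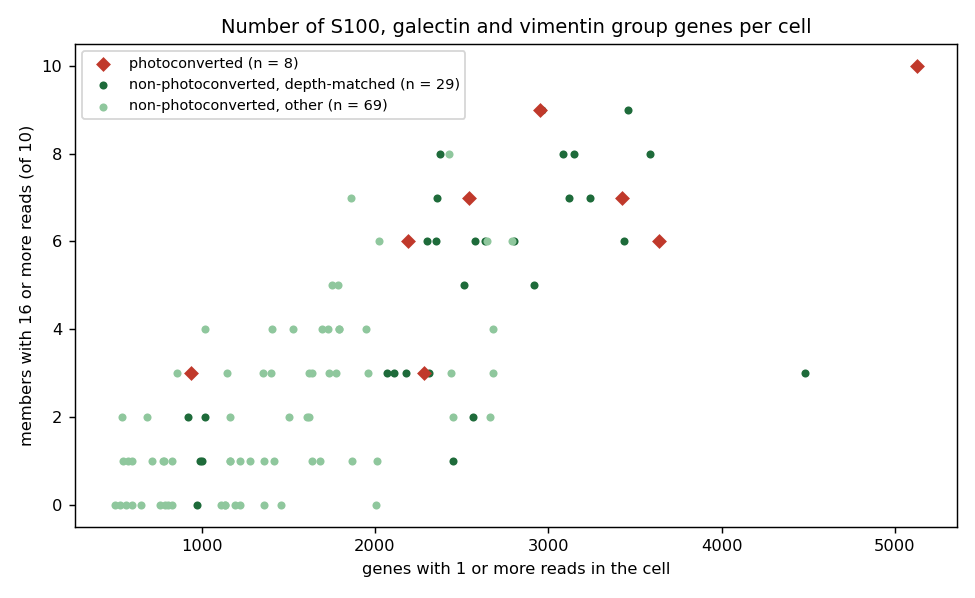
Number of the 10 genes with 16 or more reads (y axis) against the number of genes with at least 1 read (x axis) in each cell of plate 1, for photoconverted cells, depth-matched and other non-photoconverted cells. The number is higher in deeper non-photoconverted cells, and the photoconverted cells lie among non-photoconverted cells of like depth, except for the deepest, with 5129 genes, which held all 10.

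Across the 98 non-photoconverted cells pairs of the members had a higher median correlation of levels than gene pairs in general before depth was removed, with S100a6, Lgals1, Vim and S100a4 among the closest. Over the 36 pairs of the 9 genes that passed the filter, the median Spearman rho of levels was 0.26, with all 36 above 0, against a median of 0.10 over 5080078 pairs of all genes tested, where the middle 50% lay between 0.03 and 0.17. Depth and the shared library enter such values. The level of each of these 9 genes correlated with genes per cell, with rho between 0.18 for S100a11 and 0.51 for Emp3 and Ahnak. With the linear relation to log genes per cell removed, the median was 0.15 over the members and 0.06 over all pairs, whose middle 50% lay between -0.02 and 0.15, so that the members' median was no longer above it. These correlations are across cells of 1 library, and are given as a description with no test. The 8 photoconverted cells were too few for a correlation.

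The pair of S100a6 and Lgals1 had the highest rho, 0.53, and 0.43 with depth removed. Of the 16 non-photoconverted cells with Lgals1, 13 also had S100a6, and all 7 such depth-matched cells did. The same counts held for S100a10, whose rho with Lgals1 was 0.25 (0.16 with depth removed). S100a11 was also seen in 13 of the 16 cells. Joint detection was thus not particular to the pair of S100a6 and Lgals1. S100a4 with S100a6, the close neighbours on chromosome 3, had a rho of 0.49 (0.37 with depth removed). Both were held by 12 depth-matched cells, a single one of them by 5 and neither by 12. S100a4 and Vim, on different chromosomes, were held together by 13 of these cells, each alone by 2 and neither by 12. Their rho was 0.39 (0.30). S100a6 with Vim had 0.49 (0.38), Vim with Lgals1 0.41 (0.34), and S100a4 with Ahnak 0.42 (0.29). Position on the chromosome did not go with correlation in the second pair: S100a10 with S100a11 had a rho of 0.05 (0.01). S100a11 had its highest rho with Lgals1, at 0.35 (0.34), and lay near 0 with Crip1 (0.04) and Emp3 (0.02). S100a10 with Vim was at 0.09, and -0.08 with depth removed.

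S100a4, S100a6, Vim and Lgals1 were picked for their rho in these same non-photoconverted cells, so their joint detection there is a description only. Of the 8 photoconverted cells, 2 (cells 3 and 4) had all 4 and cell 8 none, and of the 29 depth-matched cells, with 923 to 4480 genes, 6 had all 4 and 10 none. Of photoconverted cells, 3 held both S100a4 and S100a6, 1 S100a4 alone, 3 S100a6 alone and 1 neither.

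**Figure D4:**
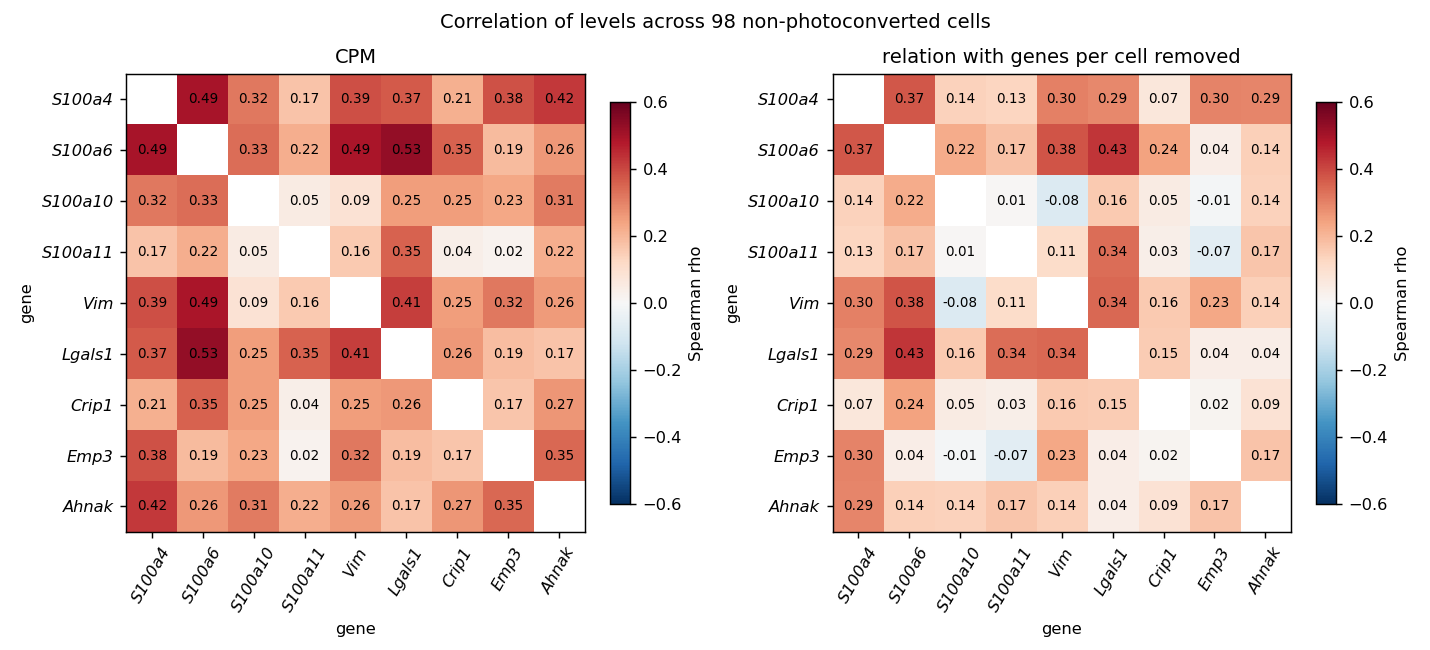
Spearman rho between the levels of 9 genes across the 98 non-photoconverted cells, from CPM (left) and after removing the linear relation with log genes per cell from the ranks (right). S100a4, S100a6, Vim and Lgals1 have rho among the highest in both panels, between 0.37 and 0.53 at left and between 0.29 and 0.43 at right.

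Genes whose level went most like the members' mean rank across non-photoconverted cells were, of 761 genes detected in at least 25% of these cells, Hspe1 (rho 0.50), Cd44 (0.49), Hnrnpab (0.48), Rbpj (0.48) and Esyt1 (0.48). The median over the 761 genes was 0.24. Hspe1 is a mitochondrial chaperonin, Cd44 a receptor for hyaluronan, Hnrnpab an RNA-binding protein, Rbpj the transcription factor of Notch signalling and Esyt1 a tether between membranes. With depth removed from both sides Hnrnpab (0.34) and Cd44 (0.34) stood at places 2 and 3, whereas Rbpj (0.16) and Esyt1 (0.18) stood at places 81 and 57. Thy1, a surface glycoprotein of lymphocytes named here after its value was seen, came first at 0.37. The depth-removed median over the 761 genes was 0.01.

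Annexins, the partners of S100 proteins, mostly had a higher share in photoconverted than in depth-matched cells. Of 10 annexin genes looked for, 8 matched a row and 5 passed the filter; 4 of these were higher by share (Anxa1, Anxa5, Anxa7 and Anxa11) and Anxa6 lower, beside 54.4% of all genes higher, with a median difference of 37.5 points beside 2.5 over all genes. The same 4 had a mean level at least 2-fold higher, beside 11.4% of all genes, and with 100 CPM added in place of 10 none of them did. Anxa1, the partner of S100a11, stood at 6 of 8 photoconverted and 35% of depth-matched cells, with means of 158 and 58.0 CPM. Anxa11, known to bind S100a6, was detected in 5 of 8 and in 12.5%, with means of 90.7 and 17.8 CPM. Anxa5 stood at 5 of 8 and 25%, and Anxa7 at 3 of 8 and 12.5%. Anxa6 stood at 6 of 8 photoconverted and 82.5% of depth-matched cells, with means of 332 and 472 CPM. Levels of these partners went little together across the 98 non-photoconverted cells. The rho was 0.12 (0.10 with depth removed) for S100a11 with Anxa1 and 0.03 (-0.07) for S100a6 with Anxa11.

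Anxa2, the partner of S100a10, lay just under the filter with 9.43% of all cells and is named here after its values were seen. It reached 16 reads in 5 of 8 photoconverted and 15% of depth-matched cells by weight, with means of 290 and 26.9 CPM. All 5 photoconverted cells with Anxa2 also had S100a10, but 7 of 8 photoconverted cells had S100a10. Of the 98 non-photoconverted cells 53 (54.1%) had S100a10, 5 had Anxa2 and 3 had both. S100a10 was thus mostly seen without Anxa2 (rho 0.05). S100a10 and Ahnak went together more closely, with both in 28 of the 34 non-photoconverted cells that had Ahnak (rho 0.31, and 0.14 with depth removed). At least 3 of the 8 annexins together were seen in 7 of 8 photoconverted cells (47.3 to 99.7%), in 4 of the 29 depth-matched cells (3.89 to 31.7%), which by weight is 25%, and in 7 of 98 non-photoconverted cells (2.92 to 14.2%). This count rests on the same detections as the shares above, those of Anxa2 included, and is no separate result. No such count was made for sets drawn from all genes. Without any single photoconverted cell, 4 or 5 of the 5 annexins were higher by share, and 3 or 4 at least 2-fold higher by level. Cst3, a gene of myeloid cells, stood at 6 of 8 photoconverted and 40% of depth-matched cells, and its part in the annexin values was not tested.

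Other relatives of the members gave smaller sets. S100a13 was detected in 6 of 8 photoconverted and 40% of depth-matched cells, and of 11 further S100 genes looked for it was the single one to pass the filter. Lgals9, a galectin with 2 sugar-binding domains, was detected in 6 of 8 and 47.5%, with means of 720 and 292 CPM, and Lgals3bp, which binds galectin-3, in 7 of 8 and 50%, with means of 603 and 391 CPM. Plec, the linker of intermediate filaments, was detected in 7 of 8 and 55%, with means of 1311 and 355 CPM. Macf1, which links microtubules and actin, stood at 62.5% in both, with a lower mean in photoconverted cells (234 and 396 CPM). Plp2, a membrane protein with 4 transmembrane segments, was detected in 6 of 8 and 42.5%, with means of 495 and 264 CPM. The LIM protein Csrp1 was detected in 4 of 8 and 37.5%, but its mean was lower in photoconverted cells (59.3 and 100 CPM).

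Of 8 regulators known to act on migration genes in lymphocytes, 7 matched a row and 4 passed the filter. Klf2, Klf6 and Tgfbr2 were higher by share and Srf lower, beside 54.4% of all genes higher and 38.6% lower. Klf2, known to control lymphocyte egress, was detected in 2 of 8 photoconverted and 17.5% of depth-matched cells, and Klf6 in 6 of 8 and 67.5%. Their means were 141 and 77.4 CPM for Klf2, and 577 and 601 CPM for Klf6. Tgfbr2, a chain of the receptor for TGF-beta, was detected in 5 of 8 and 42.5%, with means of 216 and 67.1 CPM, and Srf, serum response factor, in 1 of 8 and 20%, although its mean was 94.4 and 36.2 CPM.

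**Figure D5:**
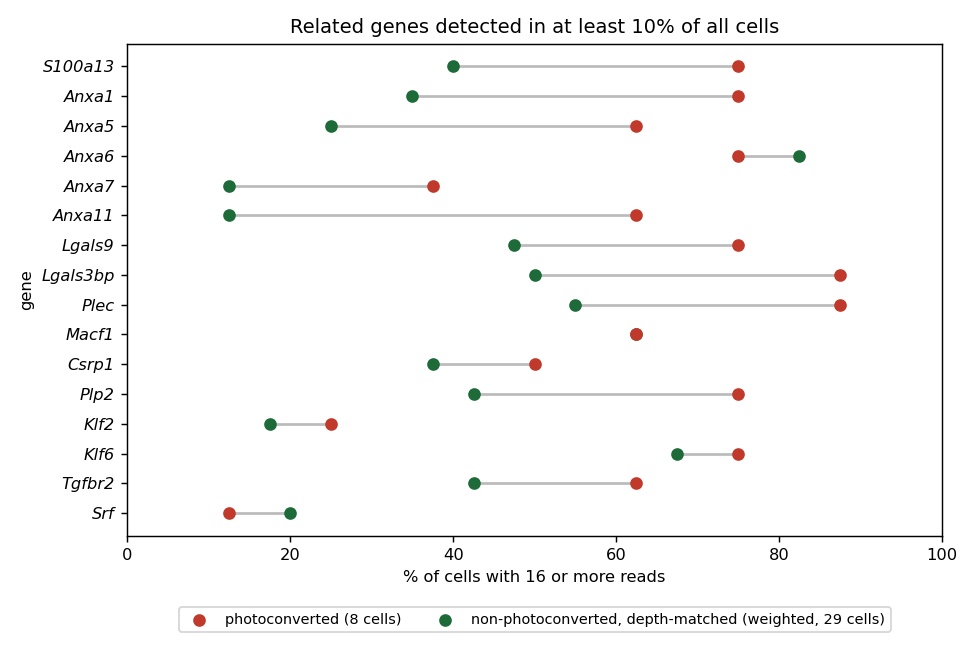
Share of cells with 16 or more reads (x axis, %) of each related gene that was detected in at least 10% of all cells, in the 8 photoconverted and, by weight, the 29 depth-matched non-photoconverted cells. All genes but Anxa6, Macf1 and Srf lie further right in photoconverted cells, and Anxa11, Anxa1, Anxa5 and Lgals3bp are the furthest apart, by 37.5 points or more. Over all genes tested 54.4% were higher by share.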

How the data were processed

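Deposited by the authors were raw counts of reads for each row and each of 384 wells on 4 plates, and a sort record with the colour call and the red fluorescence intensity of each well, in arbitrary units per the file headers. The submitters' processing notes name STAR, STARsolo, edgeR and mm10; versions and roles are not given in the sources used here. The values are reads and not molecular identifiers. Plate 1 alone was used, as 1 sample: its row names match its values, and its 78 spike-in rows (43.2% of reads) were set apart. With 1 sum per colour no count model leaves residual degrees of freedom, so none was fitted and no p-value is given.

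Detection, depth-matching, the filter of 10% of cells, the 2-fold limit and the correlations were computed in Python 3.11.15 (numpy 2.4.6, pandas 2.3.3, scipy 1.17.1). The log2 ratio after matching and the 2-fold limit were tested on simulated data, with non-photoconverted cells drawn at random in place of photoconverted ones. These cells were not chosen to be deeper, and each gene was simulated on its own. The change put in was of a single size, larger than the log2 ratio of any member. The simulation therefore cannot show how matching works for deeper cells or for smaller changes. Share differences and correlations were not tested in this way. CPM are reads per 1000000 gene reads of the cell, mitochondrial ones included; drawing each cell down to 1000 reads leaves the ranks of levels, and so rho, as they are. Gene reads per cell ran from 56539 to 1677643 in photoconverted and from 17825 to 1274117 in non-photoconverted cells. Intervals are exact (Clopper-Pearson or Poisson). All members, the 5 genes most like them and each related gene past the filter are named by rule. The members, lists and rules were chosen with earlier results of these data known. Coordinates are from GENCODE M21 and promoter windows from RefSeq, both on GRCm38 (mm10). Wells were sorted as single cells, and doublets were not called, cell 4 included. The alternatives tried were other detection limits, matching rules, cell filters, scalings and pseudocounts, and leaving out cells.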

Additional observations from a re-analysis of the deposited data

Results flagged for a closer look

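Members were also read in wells that failed the cell filter and entered no comparison. At least 1 of the 10 genes reached 16 reads in 2 of 4 such photoconverted wells (exact 95% binomial interval 6.76 to 93.2%) and in 6 of 53 such non-photoconverted wells (4.27 to 23.0%), against 1 of 221 empty wells (0.0115 to 2.50%). The photoconverted wells held S100a10 in 2 wells, at up to 320 reads, and S100a4 and S100a11 in 1 each. These wells had a median of 433 genes and at most 435. The non-photoconverted wells that failed had a median of 166 genes and at most 572, so the 2 shares differ in depth as well as in colour. The non-photoconverted wells held S100a4, S100a10, S100a11, Vim, Crip1 and Emp3.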

How the results depend on the processing

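The count of 6 of 9 members higher by share lay between 4 and 9 under 19 alternatives, with 9 when all non-photoconverted cells were used without matching. The median share difference lay between -2.86 and 36.0 points; it was below 0 in the alternatives without photoconverted cell 8, which at least 1000 genes per cell also leaves out. The median log2 ratio of 0.72 was 0.13 with at least 1000 genes per cell, 0.027 with reads per spike-in read and 1.42 with median in place of mean CPM. The values 0.72, 0.13 and 0.027 are those of Crip1. Reads per spike-in read moved the median of all genes by 0.37 (to 0.10) and a pseudocount of 100 by 0.13. Leaving out each photoconverted cell in turn gave 4 to 7 members, -2.86 to 17.1 points and a median log2 ratio of 0.13 to 0.80. The median rho of 0.26 was 0.15 with the relation to log genes removed, 0.31 in the depth-matched cells alone, 0.25 with at least 1000 genes and 0.27 with values under 16 reads set to 0; drawing down keeps the ranks and could not move it. Several share differences changed sign. That of Ahnak (-10 points) was 20 with detection at 1 and at 4 reads and 27.8 without matching, that of Crip1 (7.5) was -5 at 4 reads and -2.86 without cell 8, and that of S100a10 (2.5) was as low as -6.67. For Emp3 the share difference of 27.5 points was -7.5 with detection at 64 reads and -10.7 after drawing down to 1000 reads, and its log2 ratio of -1.14 was 1.60 from median CPM; the causes were not tested. The log2 ratios of S100a4 and Vim stayed below 0 in all 19 alternatives that could move them. Those of S100a6, S100a10, S100a11, Lgals1 and Crip1 stayed above 0 in all 19, and that of Ahnak turned in 4. Signs were not counted in this way over all genes, and the alternatives share most of their cells. Without the 2 non-photoconverted cells that held at least 3 of 6 markers of dividing cells, 15% of the matched weight and with 9 and 8 of the members, the log2 ratio of S100a4 was -1.13 and the median 1.13. The alternatives without dividing cells, without the photoconverted cells of lowest red fluorescence, with median CPM and with values under 16 reads set to 0 were chosen after seeing the data. Shares of 8 cells have intervals over 50 points wide, so differences of the size seen for most members were not detectable with this number of cells. No paired analysis was possible because 1 plate was used and no result comes from a test.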

Other observations

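Among ILC2 markers, none of 12 went with the members' mean rank across the 98 non-photoconverted cells once depth was removed. Gata3, the lineage's transcription factor, had a rho of -0.35, Areg (amphiregulin) -0.30 and Il5 (interleukin-5) -0.26, and the other 9 lay between -0.11 and 0.08. Before depth was removed, these 3 stood at 0.02, -0.13 and 0.08. These are shares of 1 total per cell, and the values are given as a description of 1 library.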
